A study of Homo sapiens with 6 samples.

Results

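The keratin genes were examined in RNA-seq of HBECs, the human bronchial epithelial cell line that the labels call HBE cells. They were chosen by name, as KRT followed by a number and at most a closing letter A, B or C, which took 55 of the 61228 genes in the table and left out the pseudogenes. The cells were wild type (WT) and were treated for 24 h, with 3 libraries from cells given cockroach extract (CRE) alone and 3 from cells given CRE with VAF347, an agonist of the aryl hydrocarbon receptor (AhR). Every library therefore came from CRE-treated cells, and the comparison addresses what the agonist did in the presence of the allergen. Cells without CRE and cells given VAF347 alone were not analysed here. The cells are of 1 line, and the labels do not say that the 3 libraries of a group came from separate cultures, so p-values measure the spread between libraries, which may be technical.

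Keratins are the intermediate filament proteins of epithelial cells. An acidic type I chain pairs with a basic type II chain, and the pairs assemble into filaments that are anchored at desmosomes between cells and at hemidesmosomes on the basement membrane. The pairs that a cell makes mark its type and state: KRT5 and KRT14 with KRT15 are keratins of basal cells, KRT8 and KRT18 with KRT7 and KRT19 are keratins of simple epithelium, KRT6A, KRT6B, KRT6C, KRT16 and KRT17 are induced by stress and wounding, KRT1 and KRT10 belong to differentiating stratified epithelium, and most of the others are made in hair and its root sheath.

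The libraries held 8873160 to 10750283 counts, and 1 count was worth 0.0930 to 0.113 CPM, the count scaled to a common library size. CRE replicate 3 stood apart from the other CRE libraries. Its counts differed from those of CRE replicates 1 and 2 by a mean chi-square of 9.25 and 8.95 per gene, against 1.79 to 2.58 for the other pairs of libraries within a group. *CYP1A1*, a target of the AhR, rose from a mean of 0.624 ± 0.159 to 46.7 ± 3.92 CPM (SD, n = 3 in each group), as the treatment labels imply. The 5 epithelial markers, *CDH1*, *EPCAM*, *ESRP1*, *GRHL2* and *CLDN4*, were all expressed, with a summed level of 1787 to 2127 TPM (a relative transcript abundance scaled for gene length) over the 6 libraries. Of 5 markers of airway basal cells, *ITGB4*, *NGFR* and *DLK2* were detected, whereas *TP63*, the defining transcription factor of these cells, had at most 1 count in a library and *DAPL1* had 0 counts. Of 5 secretory markers, 4 had 0 counts in every library and *MUC5B* had at most 2 counts.

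Of the 55 keratins, 13 had enough counts to be tested and 42 did not. Among these 42, 27 had 0 counts in all 6 libraries and 10 had at most 3 counts in any library. The 5 that went above 3 counts were *KRT34*, *KRT39*, *KRT83*, *KRT9* and *KRT222*, and none of them exceeded 7 counts. By class, 2 of 3 basal keratins, 2 of 5 stress keratins, 4 of 5 simple keratins, 2 of 12 keratins of stratified differentiation, 2 of 26 hair and root sheath keratins and 1 of 4 others were tested. Some missing chains were partners of chains that were present. *KRT14*, the type I partner of KRT5 in basal cells, had 1 count in CRE replicates 1 and 2, 2 counts in CRE + VAF347 replicate 3 and 0 counts in the other libraries. *KRT6A*, the type II partner of KRT16, had at most 3 counts in a library. Apart from these partners, *KRT20*, a simple keratin of gut epithelium and the only simple keratin not tested, had 0 counts. A count of 0 allows up to 3 counts, or 0.279 to 0.338 CPM in these libraries, with counting error only.

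**Figure D1:**
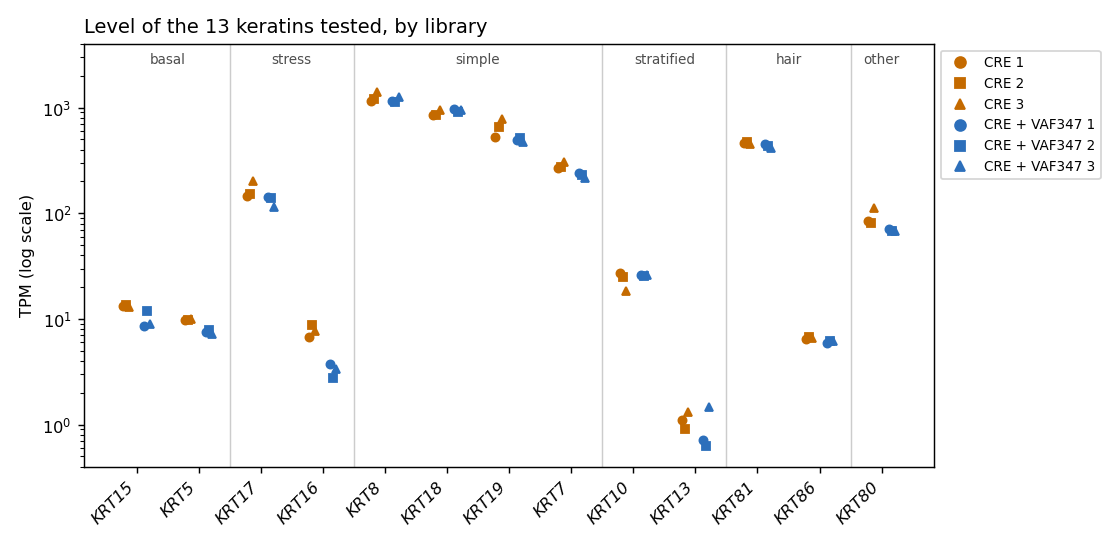
Level in TPM (log axis) of each of the 13 keratins tested in each library, grouped by class, with CRE in orange and CRE + VAF347 in blue and a symbol for each replicate. The simple keratins and KRT81 lie above the basal keratins in all 6 libraries, and KRT16 is the gene whose groups lie furthest apart without overlap.

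On the TPM scale, which allows levels of different genes to be compared, simple keratins were the main keratins of these cells. *KRT8*, the type II simple keratin, had 1150, 1194 and 1414 TPM in CRE and 1166, 1126 and 1250 TPM in CRE + VAF347, and ranked 103 among all genes by its mean level. Its type I partner *KRT18* had 843, 855 and 947 TPM in CRE and 980, 906 and 944 TPM in CRE + VAF347. The *KRT8* level exceeded the *KRT18* level in every library, and for both genes the groups overlapped on this scale. *KRT19*, a type I simple keratin that also marks ducts and basal layers, had 524, 657 and 774 TPM in CRE and 498, 515 and 472 TPM in CRE + VAF347. *KRT7*, the type II keratin of ducts and glands, had 270, 274 and 306 TPM in CRE and 240, 228 and 216 TPM in CRE + VAF347. For *KRT19* and *KRT7* every CRE + VAF347 library was below every CRE library.

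Basal keratins were present at a far lower level. *KRT15* had 13.4, 13.7 and 13.03 TPM in CRE and 8.56, 11.9 and 8.97 TPM in CRE + VAF347. *KRT5* had 9.86, 9.75 and 10.01 TPM in CRE and 7.51, 7.79 and 7.25 TPM in CRE + VAF347. For both genes all 3 CRE + VAF347 libraries lay below the CRE libraries on the TPM scale, and the level of each was under that of every simple keratin tested. Of the stress keratins, *KRT17* was abundant, with 145, 151 and 200 TPM in CRE and 143, 140 and 116 TPM in CRE + VAF347. *KRT16* was not, with 6.71, 8.81 and 7.68 TPM in CRE and 3.72, 2.77 and 3.37 TPM in CRE + VAF347. The groups did not overlap for either gene. KRT17 is also made by basal cells, and it made up 95.4 ± 0.955% of the summed TPM of the stress keratins in CRE and 97.5 ± 0.437% in CRE + VAF347 (SD, n = 3).

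Among the remaining keratins, *KRT81*, a type II hair keratin, reached levels between those of *KRT19* and *KRT7*, with a mean of 463 ± 9.91 TPM in CRE and 434 ± 16.7 TPM in CRE + VAF347. *KRT86*, another type II hair keratin, had 6.60 ± 0.160 and 6.11 ± 0.140 TPM. *KRT80*, a type II keratin of many epithelia, had 92.2 ± 16.6 and 68.9 ± 1.54 TPM. *KRT10* had 23.6 ± 4.81 and 25.9 ± 0.366 TPM, and *KRT13*, a type I keratin of moist stratified epithelium, had 1.11 ± 0.198 and 0.933 ± 0.456 TPM (SD, n = 3 in each group). Thus a hair keratin was the fourth most abundant keratin, above KRT7, in all 6 libraries. *KRT81* lies inside *KRT86* on the opposite strand, and *KRT86* overlaps *KRT7* on the same strand. The division of fragments among these genes may be uncertain, and this was not tested.

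**Figure D2:**
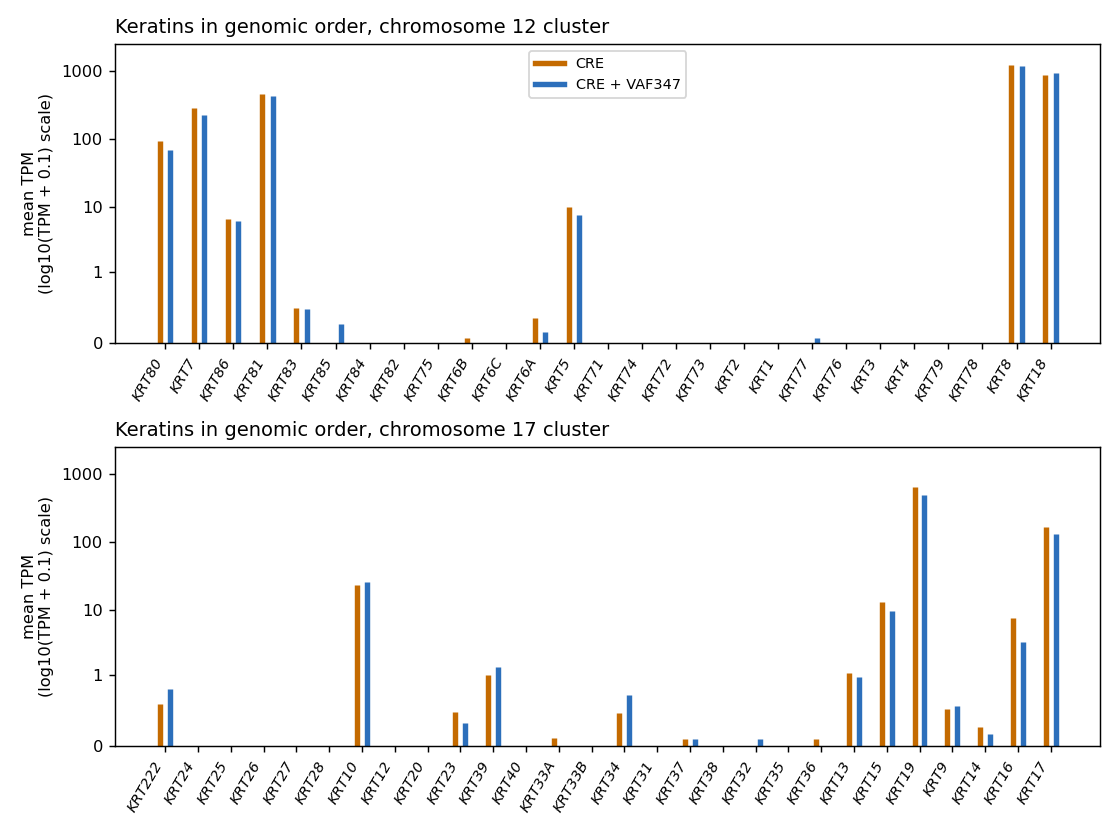
Mean TPM of each keratin in CRE (orange) and CRE + VAF347 (blue), on a scale of log10(TPM + 0.1), with the genes of the chromosome 12 and chromosome 17 clusters in genomic order and evenly spaced. On chromosome 12 the expressed genes sit at both ends and at KRT5, and on chromosome 17 at the KRT17 end and at KRT10.

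The genes fell into 2 genomic clusters (hg38). The 27 genes on chromosome 12, from 52168996 to 52952906, comprised all 26 type II keratins and *KRT18*, and 7 of them were tested. The 28 genes on chromosome 17, from 40654665 to 41624842, were all type I, and 6 of them were tested. *KRT16* (ENSG00000186832.9, chr17:41609778-41615899, minus strand) lies between *KRT14* and *KRT17*, with 22882 bp to *KRT14* and 3542 bp to *KRT17*. *KRT15* and *KRT19* are 1087 bp apart. Expressed and barely detected genes were thus close neighbours, as with *KRT14*, *KRT16* and *KRT17*.

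Promoter windows of RefSeq genes (GRCh38.p14) were read from the table used here, which covers part of the genes. Of the 55 keratins 34 matched it, among them *KRT5*, *KRT8* and *KRT10* of the 13 tested. *KRT7*, *KRT13*, *KRT15*, *KRT16*, *KRT17*, *KRT18*, *KRT19*, *KRT80*, *KRT81* and *KRT86* were not matched. The 250 bases before the RefSeq start are shown for a basal and a differentiation keratin. The windows lie at chr12:52520395-52520644 for *KRT5* and chr17:40822615-40822864 for *KRT10*, both on the minus strand. The *KRT10* window ends where the gene begins in the GENCODE annotation, whereas 136 bases of the *KRT5* window are inside the longer gene of that annotation. The *KRT8* window lies wholly inside the GENCODE gene, 23235 bases after its start, and is not shown. Capitals mark a match, on either strand, to the motifs given after them:
KRT5: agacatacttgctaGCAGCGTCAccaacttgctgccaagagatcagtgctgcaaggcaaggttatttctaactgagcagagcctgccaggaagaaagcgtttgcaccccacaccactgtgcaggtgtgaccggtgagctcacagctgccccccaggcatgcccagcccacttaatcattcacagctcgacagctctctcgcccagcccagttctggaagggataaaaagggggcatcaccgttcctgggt
KRT10: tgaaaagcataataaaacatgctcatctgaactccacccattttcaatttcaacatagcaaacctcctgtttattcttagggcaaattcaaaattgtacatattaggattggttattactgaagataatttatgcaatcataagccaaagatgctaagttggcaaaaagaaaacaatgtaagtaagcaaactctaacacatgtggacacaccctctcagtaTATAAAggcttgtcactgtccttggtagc
The capitals in *KRT5* match the antioxidant response element TGACNNNGC on the reverse strand, and those in *KRT10* match the TATA box TATAAA. The AhR core motif GCGTG was found in 0 of the windows of *KRT5*, *KRT8* and *KRT10*, in 4 of the 34 keratin promoters and in 31.9% of all 27305 promoters of this length. TGACNNNGC was in 7 of the 34 and in 11.0% of all, the AP-1 motif TGANTCA was in 0 of the 34 and in 6.60% of all, and TATAAA was in 20 of the 34 and in 11.1% of all. These are matches of letters within a fixed window before 1 RefSeq start and do not show binding.

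**Figure D3:**
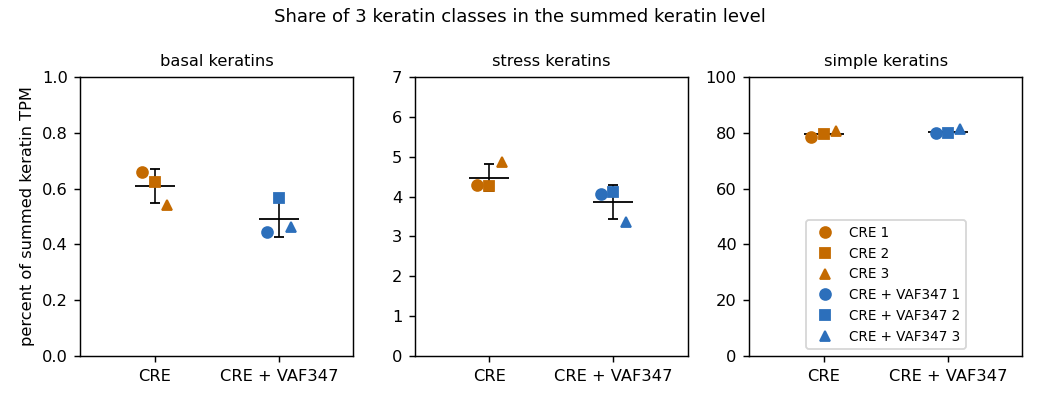
Percent of the summed TPM of all 55 keratins held by the basal, stress and simple classes in each library, with the mean and SD of each group (n = 3). Each panel starts at 0 and has its own upper limit. The simple keratins hold about the same share in both groups, and the basal groups overlap.

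To compare the classes, the TPM of all keratins were summed in each library. The sum was 3548, 3753 and 4265 TPM in CRE and 3606, 3472 and 3540 TPM in CRE + VAF347, and CRE replicate 3 had the highest value. Simple keratins held 79.6 ± 1.07% of it in CRE and 80.4 ± 0.843% in CRE + VAF347, and the groups overlapped. Hair and root sheath keratins, nearly all of it KRT81, held 12.3 ± 1.30% and 12.5 ± 0.363%. Stress keratins held 4.30, 4.27 and 4.87% in CRE and 4.07, 4.13 and 3.37% in CRE + VAF347, so that all CRE + VAF347 libraries were lower, the nearest by a small margin. The value of 4.87% was that of CRE replicate 3, where *KRT17* was highest in TPM (200) but not in CPM (152, against 155 in CRE replicate 2). Basal keratins held 0.660, 0.626 and 0.540% in CRE and 0.446, 0.566 and 0.462% in CRE + VAF347, and these groups overlapped. Keratins of stratified differentiation held 0.659 ± 0.179% and 0.767 ± 0.0115%, with CRE replicate 3 the lowest at 0.463%. The summed level of type II keratins was 1.21 ± 0.0526 times that of type I in CRE and 1.19 ± 0.0486 times in CRE + VAF347 (SD, n = 3 throughout). The mean share of the simple keratins was 0.874 percentage points higher in CRE + VAF347, a difference of 0.373 without CRE replicate 1, 0.388 without CRE + VAF347 replicate 3 and 1.44 without CRE replicate 3. The difference of the stress keratins was -0.623 points in TPM, -0.395 in counts, and -0.378 without CRE + VAF347 replicate 3. With *KRT17* counted as basal, the difference of the basal keratins went from -0.117 to -0.629 points and that of the stress keratins to -0.111.

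Levels of genes in the same library were also set against each other. The TPM ratio of *KRT17* to *KRT16* was 21.7, 17.2 and 26.0 in CRE and 38.4, 50.7 and 34.4 in CRE + VAF347, so the groups did not overlap. The ratio of *KRT19* to *KRT18* was 0.622, 0.769 and 0.818 in CRE and 0.509, 0.569 and 0.499 in CRE + VAF347. The ratio of *KRT8* to its partner *KRT18* was 1.36, 1.40 and 1.49 in CRE and 1.19, 1.24 and 1.32 in CRE + VAF347. The groups did not overlap for these ratios either, and each was lower with VAF347, that of *KRT8* to *KRT18* by a small margin. *KRT7* to *KRT8* was also lower without overlap, at 0.217 to 0.235 in CRE and 0.173 to 0.206 in CRE + VAF347. *KRT7* to *KRT19* overlapped, at 0.396 to 0.516 in CRE and 0.443 to 0.481 in CRE + VAF347. How often the ratios of other gene pairs do not overlap was not counted. The ratios are made from the TPM of the single genes given above and are not further evidence of a difference. The ratio of *KRT17* to *KRT5* was 16.7 ± 2.83 in CRE and 17.7 ± 1.57 in CRE + VAF347, with overlap, and that of *KRT81* to *KRT86* was 70.2 ± 1.58 and 71.1 ± 4.30.

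Differences between the groups were tested on the counts with edgeR's quasi-likelihood test, fitted to all 15373 genes with enough counts. *KRT16* fell, and it was the only keratin to pass both thresholds, which were 0.05 for the adjusted p and 0.5 for the absolute log2 fold change. *KRT80*, *KRT17*, *KRT7* and *KRT19* fell by less and passed the adjusted p only. The log2 fold change was below 0 for 11 of the 13 keratins, compared with 47.9% of all genes tested, and for *KRT8* and *KRT81* among the 11 the groups overlapped and the sign turned with a correction for GC content. The median log2 fold change of the 13 was -0.27, against 0.01 for all genes tested. In bulk samples, less RNA per cell and fewer cells that make a keratin cannot be told apart.

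The background of the comparison was 2.21% of genes past both thresholds (1.71% lower and 0.501% higher) and 5.42% past the adjusted p at any fold (4.07% lower and 1.35% higher). Against it, 1 of 13 keratins passed both thresholds and 5 of 13 passed the adjusted p, all lower. Among the 1856 genes with a mean log2 CPM of at least 7, a set looked at after the values were seen, 8.78% passed the adjusted p, compared with 4 of the 7 keratins in that range. In normalized CPM the groups did not overlap for 7 keratins that were lower and 1 that was higher, where 14.8% and 12.5% of all genes tested were in these positions. In TPM these were 9 and 0 keratins, against 11.3% and 6.3% of all genes tested.

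Of the stress keratins, *KRT16*, which is induced in wounded and hyperproliferative epithelium, had 6.21, 8.34 and 6.26 CPM in CRE and 3.37, 2.84 and 3.39 CPM in CRE + VAF347. All 3 CRE + VAF347 libraries were well below the CRE libraries. The mean was 2.17-fold lower, with a log2 fold change of -1.11 ± 0.19 (SE) and an adjusted p of 0.00669 by edgeR's quasi-likelihood test with Benjamini-Hochberg adjustment. This rested on 60, 85 and 67 counts in CRE and 30, 27 and 34 counts in CRE + VAF347. *KRT17*, a keratin of basal cells and of wounded epithelium, had 144, 155 and 152 CPM in CRE and 127, 127 and 121 CPM in CRE + VAF347. The groups did not overlap, and the difference was small, with a log2 fold change of -0.27 ± 0.06 and an adjusted p of 0.0240 by the same edgeR test. Whether *KRT16* fell more than *KRT17* was not tested.

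Of the simple keratins, *KRT19* had 605, 742 and 740 CPM in CRE and 544, 563 and 500 CPM in CRE + VAF347, and *KRT7* had 334, 332 and 310 CPM in CRE and 281, 267 and 252 CPM in CRE + VAF347. The groups did not overlap for either gene, and CRE replicate 1 had the lowest CRE value of *KRT19*. The log2 fold changes were -0.38 ± 0.08 for *KRT19* (adjusted p = 0.0265, edgeR) and -0.29 ± 0.06 for *KRT7* (adjusted p = 0.0257, edgeR). The partners *KRT8* and *KRT18* did not pass the test. *KRT8* had 1739 ± 38.4 and 1675 ± 69.3 CPM, with a log2 fold change of -0.05 ± 0.06 (adjusted p = 0.647, edgeR). *KRT18* had 944, 943 and 925 CPM in CRE and 1056, 980 and 990 CPM in CRE + VAF347, which was higher in all 3 libraries without overlap, with a log2 fold change of 0.11 ± 0.06 (adjusted p = 0.330, edgeR). *KRT8* and *KRT18* overlap at their ends on opposite strands, and whether strand was used in counting is not given in the sources used here.

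**Figure D4:**
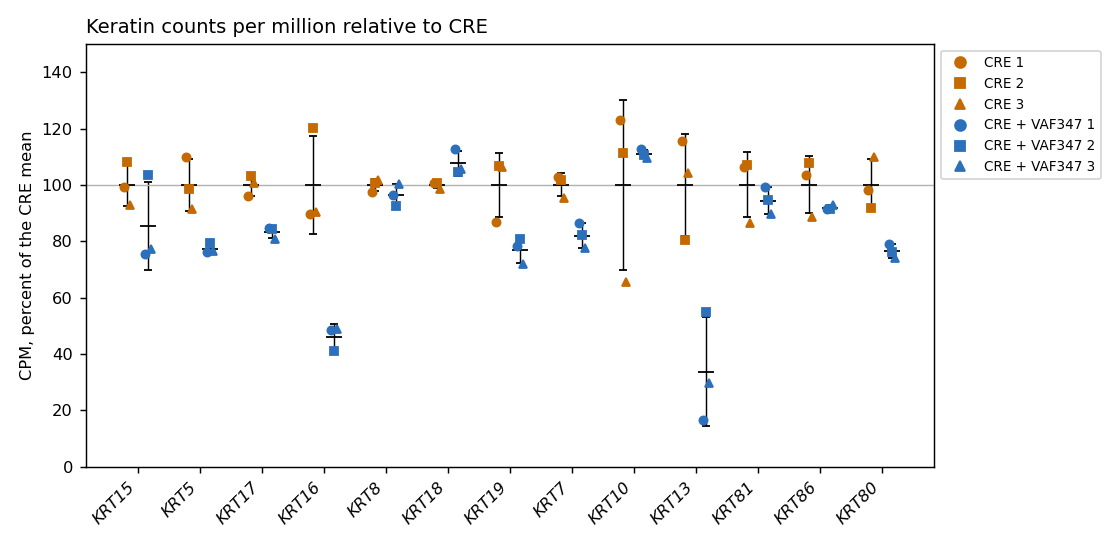
Normalized CPM of each keratin tested, as a percent of its mean in CRE, in each library, with the mean and SD of each group in black (n = 3). KRT16 lies at 46.1% of CRE on average, KRT80 at 76.4%, and KRT10 shows the wide CRE spread that comes with the low value of replicate 3.

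*KRT80* had 243, 227 and 272 CPM in CRE and 195, 189 and 183 CPM in CRE + VAF347, with no overlap. Its log2 fold change of -0.39 ± 0.07 had an adjusted p of 0.0102 by edgeR's quasi-likelihood test. The basal keratins did not pass. *KRT5* had 17.5, 15.7 and 14.6 CPM in CRE and 12.1, 12.6 and 12.2 CPM in CRE + VAF347, which did not overlap, with a log2 fold change of -0.37 ± 0.11 (adjusted p = 0.0773, edgeR). *KRT15* had 15.6 ± 1.20 and 13.4 ± 2.46 CPM, which overlapped, with a log2 fold change of -0.23 ± 0.14 (adjusted p = 0.378, edgeR). The log2 fold change of *KRT5* was close in size to those of *KRT80* and *KRT19*, which passed, and its counts were far fewer.

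The remaining keratins did not pass either. *KRT13* had the lowest counts of those tested, 15, 11 and 15 in CRE and 2, 7 and 4 in CRE + VAF347, and a log2 fold change of -1.53 ± 0.42 (adjusted p = 0.0615, edgeR). The groups of *KRT13* did not overlap in CPM but overlapped in TPM, where CRE + VAF347 replicate 3 was the highest library at 1.46 TPM. *KRT10* had 45.97, 41.7 and 24.6 CPM in CRE and 42.1, 41.4 and 41.0 CPM in CRE + VAF347. The low value of *KRT10* was that of CRE replicate 3, and the log2 fold change of 0.15 ± 0.17 (adjusted p = 0.655, edgeR) became -0.08 without that library. *KRT81* had a log2 fold change of -0.08 ± 0.08 (adjusted p = 0.619, edgeR) and *KRT86* one of -0.12 ± 0.12 (adjusted p = 0.612, edgeR), and their groups overlapped in CPM.

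The calls of small size depended on the fit. With the DESeq2 Wald test *KRT16* (adjusted p = 0.0112), *KRT80* (0.000310), *KRT17* (0.0292), *KRT7* (0.00591) and *KRT19* (0.000880) all passed the adjusted p. Other fits lost some of these calls. Transcript GC content was related to the log2 fold change over 11110 genes (Spearman's rho = -0.36, across genes, which are not independent replicates), and the median GC content of the keratins tested was 57.9%, against 49.3% for all genes tested. With a GC offset for each library, *KRT16* (log2 fold change -1.04, adjusted p = 0.0108, edgeR) and *KRT80* (-0.33, adjusted p = 0.0282, edgeR) passed the adjusted p, and *KRT17* (-0.19, adjusted p = 0.0918), *KRT7* (-0.22, adjusted p = 0.0930) and *KRT19* (-0.30, adjusted p = 0.0752) did not. With limma on log2(TPM + 1) of genes with a mean of at least 1 TPM, *KRT16* alone passed (adjusted p = 0.0393), while the log2 fold changes of *KRT80*, *KRT17*, *KRT7* and *KRT19* were -0.40, -0.30, -0.31 and -0.38, no smaller in size than under edgeR to 2 decimals. *KRT16* passed the adjusted p without each of the 6 libraries in turn (highest adjusted p = 0.0432), *KRT80* without 4 of them, *KRT17* and *KRT19* without 2 and *KRT7* without 1. The losses were *KRT80* without CRE + VAF347 replicate 2 or 3, *KRT17* and *KRT19* without CRE replicate 2 or any CRE + VAF347 replicate, and *KRT7* without any library other than CRE replicate 3. Without CRE replicate 3, the library that stood apart, 7 keratins passed, *KRT5* (adjusted p = 0.0310, edgeR) and *KRT81* (adjusted p = 0.0412, edgeR) being added. The share of all genes tested that passed without this library was not counted, so the gain cannot be set against it.

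**Figure D5:**
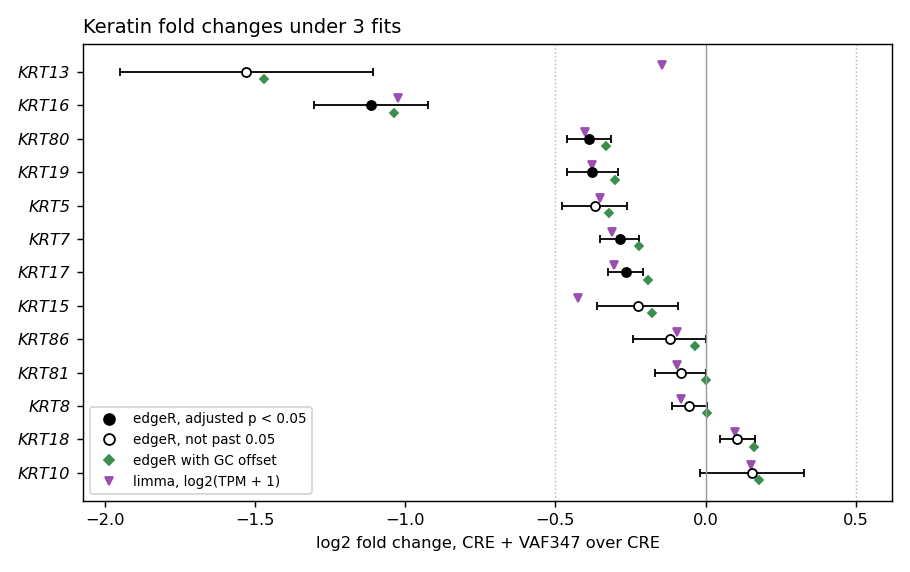
Log2 fold change of CRE + VAF347 over CRE for the 13 keratins, with circles for edgeR (bars are the SE, filled where the adjusted p is under 0.05), green diamonds for edgeR with a GC offset and purple triangles for limma on log2(TPM + 1). Dotted lines mark a log2 fold change of 0.5 in either direction; KRT16 is beyond it under all 3 fits, and KRT13 moves from -1.53 under edgeR to -0.15 under limma.

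The proteins that anchor keratin filaments were examined as a list of 18 genes, all of which were tested. The linkers past both thresholds were 2 of 18, both lower (1.71% of all genes tested), and 4 of 18 passed the adjusted p at any fold, all lower (4.07% of all genes tested), with a median log2 fold change of -0.16 against 0.01 for all genes. *COL17A1*, the collagen of hemidesmosomes, had 160, 174 and 191 CPM in CRE and 127, 117 and 92.0 CPM in CRE + VAF347, a log2 fold change of -0.65 ± 0.11 (adjusted p = 0.00555, edgeR). *DSG3*, a desmosomal cadherin of basal layers, had 12.8, 10.5 and 15.05 CPM in CRE and 8.65, 7.04 and 7.08 CPM in CRE + VAF347, a log2 fold change of -0.76 ± 0.16 (adjusted p = 0.0196, edgeR). Neither gene's groups overlapped. *ITGB4*, the integrin chain of hemidesmosomes that binds their keratin anchors, fell by 0.36 on the log2 scale (adjusted p = 0.0332, edgeR) and *DST*, a plakin that joins keratin to the hemidesmosome, by 0.29 (adjusted p = 0.0440, edgeR). The other 14 linkers, among them *DSP*, *PLEC* and *JUP*, did not pass. With limma on log2(TPM + 1), 0 of the linkers passed both thresholds.

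Of 21 transcription factors with known roles at keratin genes, 18 were tested; *TP63* and *GLI2* had at most 2 counts in a library and *SOX2* had 0. *FOSL1*, a subunit of the AP-1 factor, rose and was the only member past both thresholds (0.501% of all genes tested were higher and past both), with 19.98, 22.5 and 22.9 CPM in CRE and 34.3, 38.2 and 40.0 CPM in CRE + VAF347. All CRE + VAF347 libraries were higher, with a log2 fold change of 0.78 ± 0.09 (adjusted p = 0.000649, edgeR). *NFE2L2*, which encodes the oxidative stress factor NRF2, rose by 0.32 on the log2 scale (adjusted p = 0.0200, edgeR). The AP-1 subunits *JUN* and *FOSL2* fell by 0.43 (adjusted p = 0.00321, edgeR) and 0.29 (adjusted p = 0.0324, edgeR). The members of AP-1 past the test thus moved in both directions, and the median of the 18 factors was -0.02.

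Of 15 genes of other intermediate filament proteins, 9 were tested and *VIM* was the only one past the adjusted p, being also past the fold threshold (1.71% of all genes tested were lower and past both). *VIM*, the vimentin gene of mesenchymal cells that cultured epithelial cells also make, had 9.52, 7.46 and 7.66 CPM in CRE and 4.16, 3.89 and 1.90 CPM in CRE + VAF347. The groups did not overlap, and the log2 fold change was -1.32 ± 0.24 (adjusted p = 0.00949, edgeR), which did not pass with limma on log2(TPM + 1). The mean level of *VIM* was 6.20 TPM in CRE and 2.49 TPM in CRE + VAF347, under that of *KRT16* in each group. The nuclear lamin *LMNB1*, with means of 321 and 275 TPM, and *LMNA*, with 205 and 194 TPM, were the most abundant of the list and did not pass.

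Markers of other cell types were measured beside these results. Of 7 fibroblast markers, 3 were tested by edgeR and 0 passed, also at an unadjusted p under 0.05, *DCN*, *LUM* and *PDGFRA* had 0 counts, and the summed level was 19.97 to 22.04 TPM in CRE and 16.999 to 19.4 TPM in CRE + VAF347. Of 3 endothelial markers, *PECAM1* had at most 3 counts in a library. *CDH5* and *VWF* were lower and passed both thresholds (1.71% of all genes tested were lower and past both). The summed level of the endothelial markers was 7.31 to 7.92 TPM in CRE and 3.95 to 4.67 TPM in CRE + VAF347. Of 4 immune markers, *PTPRC*, *CD3E* and *LST1* had at most 3 counts, *CD68* did not pass, and the summed level was 21.8 to 24.6 TPM in CRE and 14.0 to 19.7 TPM in CRE + VAF347. Of 5 ciliated markers, 4 were tested. Only *CAPS* passed, being lower and past both thresholds (1.71% of all genes tested were lower and past both). The summed level of the ciliated markers was 17.7 to 21.1 TPM in CRE and 11.2 to 13.5 TPM in CRE + VAF347. Of 5 basal markers, 2 of the 3 tested passed the adjusted p only, lower (4.07% of all genes tested were lower and past it at any fold). The summed level of the basal markers was 85.6 to 120 TPM in CRE and 80.7 to 81.7 TPM in CRE + VAF347. The part of these differences in the keratin results was not tested.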

How the data were processed

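The data were poly(A)-enriched RNA-seq from HBECs, with 6 libraries, 3 per group, assigned from the sample labels, which name the table columns; 0 columns were left unmatched. The authors made the deposited expected counts and the deposited TPM values with Salmon, per gene symbol; hg38 is in the submitters' processing notes, and the Salmon version and the annotation are not given in the sources used here. All 61228 gene names of the tables were found in GENCODE on hg38, which gave positions, overlaps and transcript GC content. The authors' own table of fold changes and p-values was not used.

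Expected counts were rounded and fitted with edgeR 4.0.16 under R 4.3.3 (TMM, genes kept by filterByExpr, quasi-likelihood test, Benjamini-Hochberg adjustment over 15373 genes). The SE was computed as the absolute log2 fold change over the root of the F statistic. CPM are TMM-normalized, and values with ± are mean ± SD, except that ± after a log2 fold change gives its SE. Depth was 8873160 to 10750283 counts per library. Positions in the text count from 1. Levels of different genes were compared in TPM only.

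Every keratin that passed filterByExpr was named. Apart from *KRT20*, others were named only where a library held more than 3 counts or as a partner of a named keratin. The partners and *KRT20* were chosen after the values were seen, as were *ITGB4*, *DST*, *NFE2L2*, *JUN*, *FOSL2*, *LMNB1* and *LMNA*. Of the other lists, genes past both thresholds were named. The keratins, their classes and all lists were chosen with earlier results of these data known, and the study itself shows *KRT16* and *VIM* from these samples. Alternatives were DESeq2 1.42.0, limma 3.58.1 on log2(TPM + 1) and log2(TPM + 0.1), other filters, thresholds and normalization, a GC offset (loess, span 0.3), a replicate block, summing of near-identical copies and leaving out each library. The fits were also tested on simulated data with log2 fold changes of 1 or 2 in size. There edgeR recovered 87 of 100 genes at 1 and 97 of 100 at 2, and called 10 unchanged genes. Changes as small as those of *KRT17*, *KRT7*, *KRT19* and *KRT80* were not simulated, and the simulated TPM took no account of gene length. The simulated counts were also drawn with no trend with GC content and no library that stands apart, unlike the real counts. The number of unchanged genes called there therefore need not hold for the real counts.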

Additional observations from a re-analysis of the deposited data

How the results depend on the processing

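The count of 1 keratin past both thresholds became 2 with no filter on low counts (*KRT13* was added) and 0 with limma on log2(TPM + 1) with no filter, and it was 1 without each library. The count of 5 past the adjusted p at any fold became 2 with the GC offset, 2 with the replicate block and GC offset, 1 with limma on log2(TPM + 1) and 1 on log2(TPM + 0.1) with a mean of at least 1 TPM, 0 with limma on log2(TPM + 1) with no filter, and 1 to 7 without each library in turn, and edgeR with no filter on low counts passed 6. The 2 linkers past both thresholds became 0 with each of the 3 limma fits, 1 at an adjusted p under 0.01, 0 at a log2 fold change over 1, and 1 to 2 without each library. The 1 transcription factor became 2 with no filter, 0 with limma with no filter and 0 at a log2 fold change over 1. The 1 other intermediate filament gene became 0 with each limma fit. The causes were not tested. The share of all genes tested that passed was counted for the edgeR fit of all 6 libraries only. Counts under the other settings therefore have no background beside them. With *KRT17* counted as basal, the CRE + VAF347 minus CRE difference in share moved from -0.117 to -0.629 percentage points for basal and from -0.623 to -0.111 for stress keratins. Without each library in turn, the differences were -0.155 to -0.0916 for basal, -0.758 to -0.378 for stress and 0.373 to 1.44 for simple keratins, and in counts in place of TPM they were -0.0799, -0.395 and 1.01. Under 18 alternative settings, single keratins had 231 log2 fold changes with an adjusted p: 189 kept direction and side of the threshold, 34 no longer passed, 3 newly passed and 5 changed sign. These 5 were *KRT10* without CRE replicate 3 (-0.0778, in a range of -0.0778 to 0.33 without each library), *KRT8* with the GC offset (0.0051) and with the replicate block and GC offset (0.0046), and *KRT81* with the same (0.0031 and 0.0078). DESeq2 gave *KRT13* no adjusted p, and it is not counted.

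Summing *KRT81* with *KRT83*, *KRT86* and *KRT87P*, an alternative chosen after seeing the data, left 1 and 5 keratins passing, and so did DESeq2.

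Same-numbered libraries of the groups did not deviate together (correlations 0.053, 0.033 and 0.015). Whether they shared a culture or batch is not given in the labels and cannot be told from these values. With the replicate block, 1 keratin passed both thresholds and 5 passed the adjusted p. Depth limits the keratins at or under 3 counts, for which a difference was not detectable.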

Other observations

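Fragments given to keratin pseudogenes were counted beside their parent genes. The table held 150 keratin pseudogene names, and 52 of them had counts. The *KRT8* pseudogenes together had 183 to 254 counts in a library, at most 1.41% of the *KRT8* count, and the *KRT18* pseudogenes 21.6 to 40.3 counts, at most 0.419% of the *KRT18* count. For *KRT16* and *KRT17* the sum did not exceed 1 count in a library, and for the other 9 keratins tested it was 0.

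The TPM given per normalized CPM differed between libraries for the same gene. It ranged from 0.719 to 3.65 for *KRT13*, from 0.725 to 0.899 for *KRT15* and from 0.954 to 1.32 for *KRT17*. In TPM, 9 of the 13 keratins were lower in every CRE + VAF347 library, against 7 in CPM, and 0 were higher, against 1. Over all genes tested, 11.3% were lower and 6.3% higher without overlap in TPM, and 14.8% and 12.5% in CPM. *KRT15*, *KRT81* and *KRT86* were lower without overlap in TPM only, *KRT13* was lower without overlap in CPM only, and *KRT18* was higher without overlap in CPM only.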
